A study of Mus musculus with 18 samples.

Results

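Smooth muscle cells contract with a set of actin and myosin isoforms and with the proteins that hold and regulate those filaments. The 10 genes described here, Acta2, Actg2, Myl9, Myh11, Tpm2, Cald1, Cnn1, Tagln, Lmod1 and Des, encode parts of this apparatus. They were taken by symbol from 2 deposited tables of read counts. All 10 are rows of both tables, among 26157 symbols at day 2 and 54114 symbols at days 8 and 16. RNA had been sequenced in bulk from mouse embryonic stem (ES) cells with a tdTomato reporter at Msx1, and from embryoid bodies (EBs), aggregates in which such cells differentiate. Dlx2, a homeobox factor of pharyngeal arch mesenchyme, was overexpressed in most groups. The study set out to follow its effect on the path to ectomesenchyme and to compare the Msx1 fractions at both later days.

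The 14 libraries form 7 groups of 2. At day 2 the groups are EBs of the doxycycline-inducible Dlx2 line and EBs of the inducible GFP line. At day 16 and at day 8 they are Msx1-positive cells and Msx1-negative cells, sorted by flow cytometry from EBs of the inducible Dlx2 line. Each of these groups is labelled as treated with doxycycline at 1 µg/ml, and no GFP or uninduced group was sorted. The last group is ES cells, labelled wild type and untreated. All samples derive from 1 reporter line. EBs are mixtures, and in a bulk library a smaller number of cells of a type and less RNA per cell cannot be told apart. The labels do not say whether the 2 libraries of a group came from separate cultures, so p-values measure the spread between these libraries, which may be technical.

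Total counts ran from 26211608 to 41552818 in the EB libraries and from 53797597 to 107770730 in the others. Levels below are CPM, read counts scaled to library size with the TMM method, and were computed in each table on its own. A level set beside one of the other table is therefore not a test. The targeted gene Dlx2 stood at 4340 and 4720 CPM in Dlx2 EBs, against 0.0811 and 0.0807 CPM in GFP EBs. It stood at 288 and 341 CPM in Msx1-positive and 131 and 146 CPM in Msx1-negative cells of day 16, and at 1140 and 1270 CPM in Msx1-positive and 269 and 272 CPM in Msx1-negative cells of day 8. The libraries labelled ES held 219 and 222 CPM of Dlx2, far above the GFP EBs, although their label names no Dlx2 construct. They are called here the libraries labelled ES, and every direction drawn against them rests on that label. Msx1, the gene used for the sort, was at 73.7 and 81.6 CPM in the positive and 0.818 and 0.752 CPM in the negative fraction of day 16. At day 8 it was at 40.9 and 46.8 CPM in the positive and 1.9 and 1.02 CPM in the negative fraction.

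In smooth muscle, actin filaments of Acta2 and Actg2 slide along myosin filaments built from Myh11 heavy chains, and phosphorylation of the regulatory light chain Myl9 switches the motor on. Many of these genes are activated by serum response factor (SRF), which binds a DNA element called the CArG box and recruits the coactivators myocardin, Mrtfa and Mrtfb. The genes differ in how narrowly they mark the tissue: Myh11 is nearly restricted to smooth muscle, Acta2 is also made by activated fibroblasts and by pericytes, and Cald1, Tpm2 and Myl9 are made at lower levels by many mesenchymal cells. Neural crest mesenchyme of the pharyngeal arches gives rise to the smooth muscle of the large arch arteries.

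Promoters are shown because members were seen to differ together between the sorted fractions. RefSeq promoter sequences on GRCm38.p6 were matched to 7 of the 10 genes by symbol. The 250 bases before the start of transcription were searched on both strands for the CArG box, read as CC, then 6 bases that are A or T, then GG. Among 32851 promoters, 482 held one, a share of 1.47%. A looser form, in which 1 of the 6 middle bases may be C or G and which includes the strict form, was found in 2823 promoters, 8.59% of them; it was defined after the Acta2 promoter had been read. Of the 7 genes with a sequence, Myl9 held a strict box and Acta2 and Myl9 held 2 boxes each under the looser form. Their sequences follow, 5′ to 3′ on the strand of the gene, with the boxes in capitals. The Acta2 sequence is the minus strand at chr19:34255374-34255623, and the Myl9 sequence is the plus strand at chr2:156775214-156775463.
Acta2: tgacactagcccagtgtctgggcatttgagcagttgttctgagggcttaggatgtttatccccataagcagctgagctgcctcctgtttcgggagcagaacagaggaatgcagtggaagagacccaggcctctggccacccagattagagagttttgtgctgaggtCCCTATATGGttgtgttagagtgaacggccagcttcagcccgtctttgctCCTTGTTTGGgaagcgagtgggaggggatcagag
Myl9: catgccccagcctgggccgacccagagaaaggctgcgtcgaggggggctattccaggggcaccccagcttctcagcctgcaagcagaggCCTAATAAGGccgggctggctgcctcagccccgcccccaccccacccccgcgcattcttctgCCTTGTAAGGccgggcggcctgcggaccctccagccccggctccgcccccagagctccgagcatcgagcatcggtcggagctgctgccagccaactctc
The first bases of the Acta2 boxes CCCTATATGG and CCTTGTTTGG lie 84 and 34 bases before the start. The strict Myl9 box CCTAATAAGG begins 161 bases and the looser box CCTTGTAAGG 99 bases before the start. These starts are those of the RefSeq entries. In the GENCODE annotation, from which the gene coordinates below are taken, both genes start inside these windows. By that annotation both Acta2 boxes lie within the gene and both Myl9 boxes before it. A match of letters is a description and not a site of binding, and its absence elsewhere says only that those letters are not in that window.

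At day 16 all 10 contractile genes were higher in Msx1-positive than in Msx1-negative cells. In that comparison 31.1% of 22294 tested genes were called higher, 31% lower and 62.1% in either direction, by edgeR's quasi-likelihood test at a Benjamini-Hochberg adjusted p below 0.05. The median log2 change of the members was 2.14, against -0.016 over all genes tested. At day 8, 6 of the 10 were higher and none lower, with a median of 0.88 against 0.062 over all genes, where 30.4% of genes were called higher, 24.3% lower and 54.7% in either direction. Of the genes called at day 8, 55.6% were higher, and 66.8% were with scaling by library size, which left the members' calls as they were. The 4 not called at day 8 were Tagln, Myh11, Lmod1 and Des. With 2 libraries against 2, the smallest two-sided p that an exact permutation of 1 gene's values can give is 0.333, so each call rests on a spread shared across genes.

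**Figure D1:**
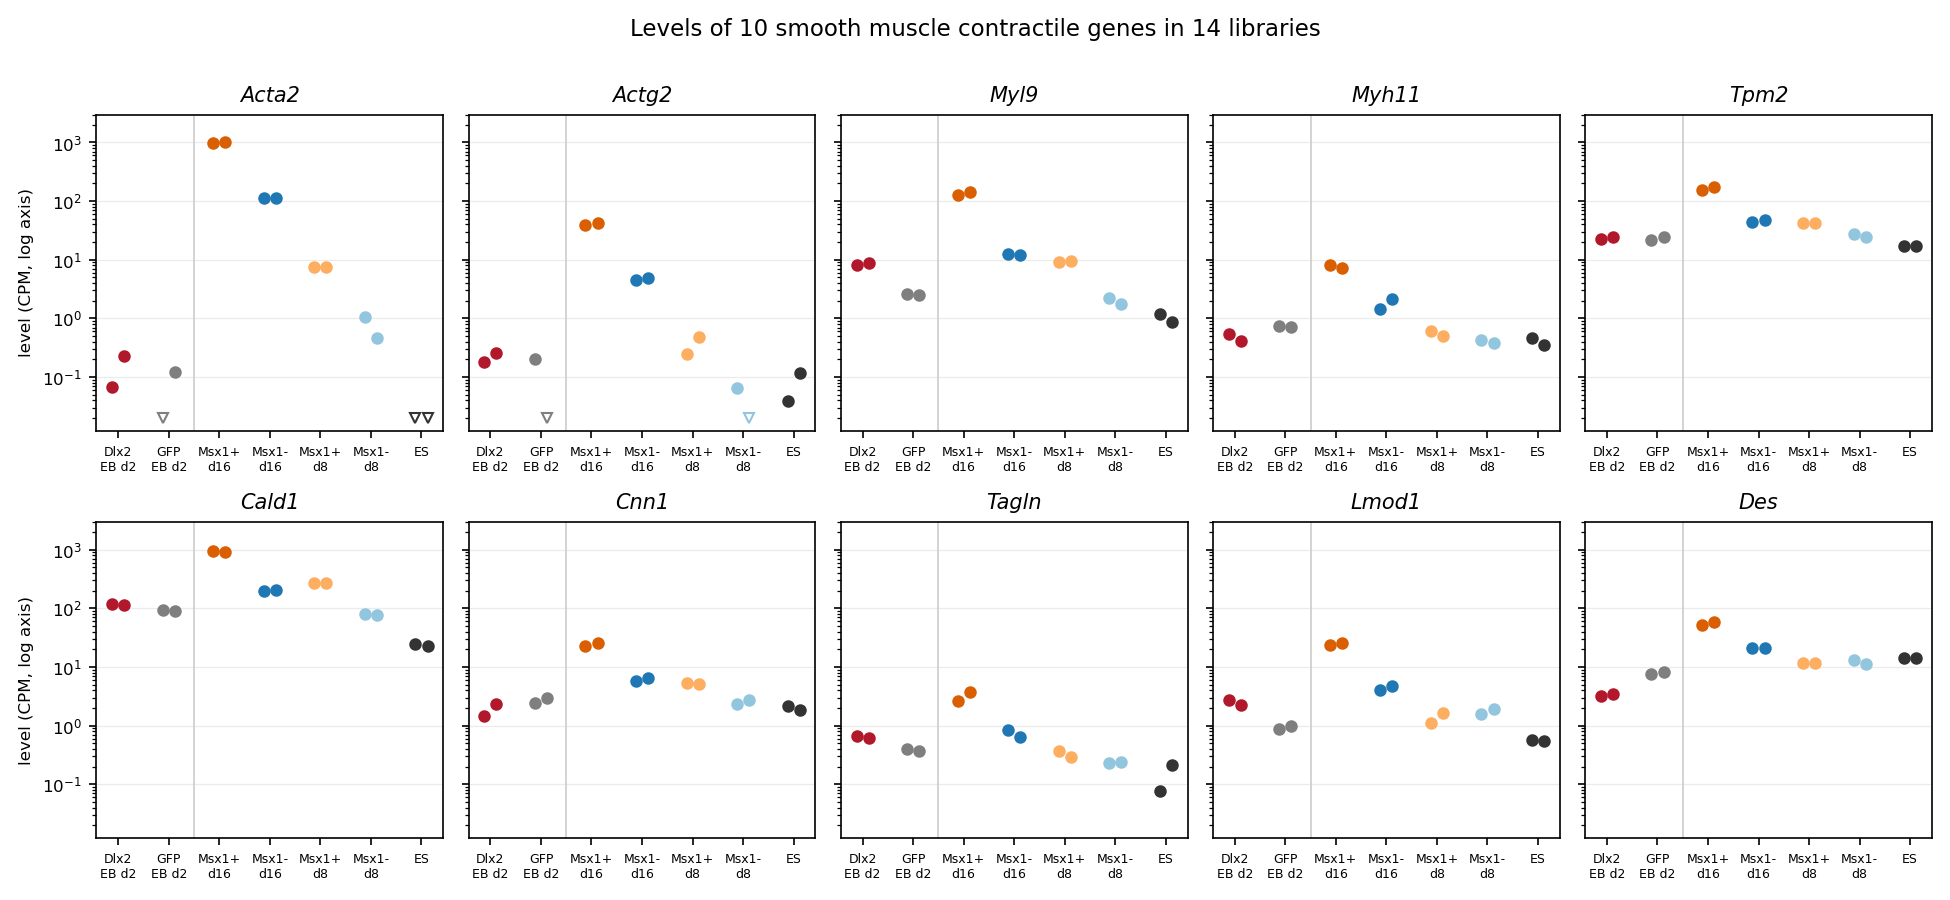
Level of each contractile gene in CPM on a log axis, with 1 point for each of the 14 libraries and groups along the horizontal axis. Open triangles at the bottom mark libraries with a count of 0, and the vertical line separates the 2 tables, which were scaled on their own. Acta2 spans the widest range, with 0 counts in both libraries labelled ES and 973 and 1030 CPM in Msx1-positive cells of day 16.

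Acta2 (chromosome 19, 34241090 to 34255590, minus strand, GRCm38) encodes alpha smooth muscle actin, the main actin of vascular smooth muscle. It stood at 973 and 1030 CPM in Msx1-positive and 111 and 111 CPM in Msx1-negative cells of day 16. At day 8 the positive fraction held 7.43 and 7.63 CPM and the negative fraction 1.04 and 0.462 CPM. Both libraries of each positive fraction lay above both of the matching negative fraction. The log2 change between fractions was 3.18 ± 0.099 (SE) at day 16 (adjusted p = 1.28e-11) and 3.29 ± 0.17 at day 8 (adjusted p = 3.49e-09). Acta2 rose between the days by 7.05 ± 0.12 in Msx1-positive cells (adjusted p = 3.88e-13) and by 7.17 ± 0.15 in Msx1-negative cells (adjusted p = 2.07e-12). The change between fractions at day 16 minus that at day 8 was -0.12 ± 0.22 (adjusted p = 0.743). As ratios, the positive cells held 9.03-fold as much as the negative cells at day 16 and 9.8-fold as much at day 8, while day 16 exceeded day 8 by 133-fold in the positive and 144-fold in the negative cells. Part of these values rests on 1 library: without the first Msx1-negative library of day 8, the change between fractions at day 8 was 3.99, the rise in Msx1-negative cells 7.88 and the difference between the days -0.82 (adjusted p = 0.0169).

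Actg2 (chromosome 6, 83512905 to 83536265, minus strand) encodes gamma smooth muscle actin, the actin of visceral smooth muscle. It was measured at 39.3 and 42.4 CPM in Msx1-positive and 4.51 and 4.97 CPM in Msx1-negative cells of day 16. At day 8 its counts were small, 18 and 56 reads in the positive and 4 and 0 reads in the negative libraries. The positive libraries again lay above the negative ones at both days, and the log2 change was 3.10 ± 0.17 at day 16 (adjusted p = 1.78e-09). It was 3.43 ± 0.61 at day 8 (adjusted p = 0.000256), where the size hangs on the 4 reads of 1 library: it was 7.77 without that library and 2.53 without the other Msx1-negative library. Between the days Actg2 rose by 6.70 ± 0.23 in Msx1-positive and by 7.03 ± 0.39 in the Msx1-negative cells (adjusted p = 2.72e-11 and 8.48e-09). Without the first Msx1-negative library of day 8 the second of these was 11.38.

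The actin sequences are close: the coding sequences of Acta2 and Actg2 are 83.8% identical, and those of Acta2 and the cytoplasmic actin gene Actg1 81.7%. Of 1986 stretches of 50 bases in the longest protein-coding Acta2 transcript, 7 also occur in Actg1, and none of those of Actg2 occur in another gene. Per kilobase of exon, Acta2 made up 17.4% ± 0.087 (SD, n = 2) of the summed level of 6 actin genes in the Msx1-positive and 3.43% ± 0.17 in the Msx1-negative cells of day 16. At day 8 the share was 0.233% ± 0.0086 in the positive and 0.0241% ± 0.013 in the negative cells, and no Acta2 read was counted in the libraries labelled ES. The rest was nearly all cytoplasmic actin: Actb held 44.5% and Actg1 36.8% in Msx1-positive cells of day 16, against 55.6% and 40.3% in Msx1-negative cells. The summed level of the 6 actins per kilobase was 2630 CPM in the positive and 1470 CPM in the negative fraction. Actb and Actg1 were themselves higher in the positive fraction at day 16, with log2 changes of 0.51 ± 0.060 and 0.70 ± 0.068 (adjusted p = 2.86e-06 and 3.63e-07).

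The striated muscle actins, Acta1 and Actc1, went in opposite directions at day 16. Acta1, the skeletal actin, was at 4.57 and 6.19 CPM in Msx1-positive and 8.31 and 8.62 CPM in Msx1-negative cells of day 16, a fall of 0.66 on the log2 scale (SE 0.19, adjusted p = 0.00799). At day 8 it was the positive fraction that held more, with 2.22 and 2.1 CPM against 0.583 and 0.85 CPM (log2 change 1.60 ± 0.24, adjusted p = 3.75e-05). Actc1, the cardiac actin, had 9.31 and 8.1 CPM in Msx1-positive and 2.36 and 2.91 CPM in Msx1-negative cells of day 16 (log2 change 1.72 ± 0.23, adjusted p = 1.35e-05). At day 8 it was also higher in the positive fraction, with 0.335 and 0.453 CPM against 0.0324 and 0.111 CPM (2.50 ± 0.47, adjusted p = 0.000323). The difference between the days was called for Acta1 (-2.25 ± 0.30, adjusted p = 6.02e-05) and not for Actc1 (-0.78 ± 0.55, adjusted p = 0.33). Acta1 is thus the 1 actin of the 6 that was lower in the positive cells at day 16.

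Myl9 (chromosome 2, 156775420 to 156781658, plus strand) encodes the regulatory light chain of smooth muscle myosin. It stood at 127 and 144 CPM in Msx1-positive and 12.6 and 12 CPM in Msx1-negative cells of day 16, and at 9.09 and 9.44 CPM in Msx1-positive and 2.27 and 1.74 CPM in Msx1-negative cells of day 8. No library of a positive fraction overlapped the negative one. Its log2 change of 3.46 ± 0.095 at day 16 (adjusted p = 3.14e-13) was the highest of the 10 genes, and it was 2.20 ± 0.12 at day 8 (adjusted p = 8.27e-10). The change was larger at day 16 by 1.26 ± 0.16 (adjusted p = 2.84e-05).

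Myh11 (chromosome 16, 14194535 to 14291372, minus strand), the smooth muscle myosin heavy chain, was low throughout. It reached 7.99 and 7.15 CPM in Msx1-positive and 1.46 and 2.16 CPM in Msx1-negative cells of day 16, a log2 change of 2.06 ± 0.23 (adjusted p = 2.15e-06). At day 8 it stood at 0.6 and 0.497 CPM in the positive and 0.437 and 0.388 CPM in the negative cells, and the change of 0.39 ± 0.30 did not pass the test (adjusted p = 0.303). Against its nonmuscle relatives Myh9 and Myh10 it made up 0.453% ± 0.007 of their summed level per kilobase in the Msx1-positive and 0.221% ± 0.03 in the Msx1-negative cells of day 16. Of 6500 stretches of 50 bases in Myh11, 26 also occur in Myh9, so a few of its reads could belong to that far more abundant gene. Per kilobase of exon, Acta2 was at 443 and 469 CPM and Myh11 at 1.05 and 0.941 CPM in the Msx1-positive libraries of day 16.

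Tpm2 (chromosome 4, 43514711 to 43523765, minus strand) encodes beta tropomyosin, which lies along the actin filament. It was at 155 and 172 CPM in Msx1-positive and 44.6 and 46.9 CPM in Msx1-negative cells of day 16, and at 42.8 and 42.7 CPM in Msx1-positive and 27 and 24.6 CPM in Msx1-negative cells of day 8. Groups did not overlap within a day, and the log2 changes were 1.83 ± 0.071 at day 16 (adjusted p = 1.41e-11) and 0.73 ± 0.072 at day 8 (adjusted p = 6.66e-07). Its share among the tropomyosin genes Tpm1, Tpm2 and Tpm4, per kilobase, did not follow its level. The share was 8.17% in both fractions of day 16, 6.54% in the Msx1-positive and 12.1% in the Msx1-negative cells of day 8, and 15.3% in the libraries labelled ES. Tpm1, the alpha tropomyosin gene, rose in the positive cells by 2.22 ± 0.067 at day 16 (adjusted p = 9.25e-13) and by 1.91 ± 0.067 at day 8 (adjusted p = 6.87e-12).

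Cald1 (chromosome 6, 34598500 to 34775473, plus strand) encodes caldesmon, which inhibits the actomyosin motor; counts per gene do not separate its smooth muscle form from the shorter form of other cells. Its levels were 950 and 919 CPM in Msx1-positive and 198 and 203 CPM in Msx1-negative cells of day 16. At day 8 they were 272 and 269 CPM in the positive and 79.4 and 76.1 CPM in the negative cells. For Cald1 alone among the 10, positive cells of day 8 lay above negative cells of day 16. The log2 changes between fractions were 2.22 ± 0.056 at day 16 (adjusted p = 1.46e-13) and 1.80 ± 0.056 at day 8 (adjusted p = 2.08e-12), and the difference of 0.42 ± 0.077 was the smallest of the 8 that were called (adjusted p = 0.000812).

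Cnn1 (chromosome 9, 22099216 to 22109630, plus strand), smooth muscle calponin, binds actin and restrains the myosin ATPase. It reached 22.8 and 25.4 CPM in Msx1-positive and 5.79 and 6.48 CPM in Msx1-negative cells of day 16, against 5.32 and 5.05 CPM in Msx1-positive and 2.33 and 2.72 CPM in Msx1-negative cells of day 8. The log2 change was 1.97 ± 0.13 at day 16 (adjusted p = 3.52e-09) and 1.04 ± 0.14 at day 8 (adjusted p = 1.26e-05). Among the 3 calponin genes Cnn1 held 2.9% ± 0.13 of the level per kilobase in the Msx1-positive and 1.61% ± 0.18 in the Msx1-negative cells of day 16. Most of the family's level was Cnn2 and Cnn3, with Cnn2 at 50.9% in the positive and 26.6% in the negative cells of day 16. Cnn2, a calponin of smooth muscle and of many other cells, rose by 2.05 ± 0.054 in the positive cells of day 16 (adjusted p = 2.15e-13), and Cnn3 by 0.48 ± 0.056 (adjusted p = 2.68e-06).

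Tagln (chromosome 9, 45929619 to 45936058, minus strand) encodes transgelin, also called SM22 alpha, an actin binding protein that appears early in smooth muscle. Its counts are uncertain: 1349 of its 1988 exon bases, 67.9%, overlap exons of Pcsk7 and Gm48529 on the opposite strand, the library kit does not mark strand, and how such reads were counted is not given in the sources used here. It was listed at 2.61 and 3.68 CPM in Msx1-positive and 0.85 and 0.638 CPM in Msx1-negative cells of day 16, a log2 change of 2.07 ± 0.32 (adjusted p = 4.98e-05). At day 8 the values were 0.377 and 0.288 CPM in the positive and 0.227 and 0.24 CPM in the negative cells (0.49 ± 0.40, adjusted p = 0.335). Pcsk7 moved less between the fractions, at 47.6 and 47.1 CPM in the positive and 33.1 and 30.5 CPM in the negative cells of day 16. Gm48529 was also higher in the positive cells of day 16, at 2.07 and 2.06 CPM against 0.801 and 1.06 CPM in the negative cells. At day 8, where Tagln was not called, Gm48529 had a mean of 0.984 CPM in the positive and 0.363 CPM in the negative cells. The part of Gm48529 in the Tagln result was not tested. The paralog Tagln2 was not called at day 16 (0.04 ± 0.067, adjusted p = 0.638) and was higher in the positive cells at day 8 (0.43 ± 0.068, adjusted p = 6.39e-05). The difference of the Tagln effect between the days, 1.59 ± 0.52 (adjusted p = 0.0346), was lost under several alternatives, among them scaling by library size (1.40, adjusted p = 0.0578).

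Lmod1 (chromosome 1, 135324807 to 135368065, plus strand) encodes leiomodin 1, which nucleates actin filaments in smooth muscle. It was at 23.6 and 25.6 CPM in Msx1-positive and 4.07 and 4.66 CPM in Msx1-negative cells of day 16, a log2 change of 2.49 ± 0.17 (adjusted p = 5.52e-09). At day 8 the positive libraries held 1.12 and 1.63 CPM and the negative libraries 1.56 and 1.94 CPM, with overlapping ranges and a change of -0.32 ± 0.20 (adjusted p = 0.19). The difference between the days, 2.81 ± 0.26, was the largest of the 10 genes (adjusted p = 1.32e-06).

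Des (chromosome 1, 75360329 to 75368579, plus strand) encodes desmin, the intermediate filament protein of all muscle types, also found in pericytes. Its levels were 52.7 and 58.9 CPM in Msx1-positive and 21.5 and 21 CPM in Msx1-negative cells of day 16 (1.39 ± 0.090, adjusted p = 4.12e-09). At day 8 they were 11.5 and 11.8 CPM in the positive and 13.4 and 11.4 CPM in the negative cells, which overlapped (-0.09 ± 0.094, adjusted p = 0.447). Its difference between the days was 1.48 ± 0.13 (adjusted p = 9.43e-07). Per kilobase, Des held 4.42% ± 0.2 of the summed level of Des, Vim and Synm in the Msx1-positive and 11.5% ± 0.68 in the Msx1-negative cells of day 16; vimentin, which makes up most of the rest, was also higher in the positive cells (log2 change 2.91 ± 0.068, adjusted p = 6.73e-14).

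**Figure D2:**
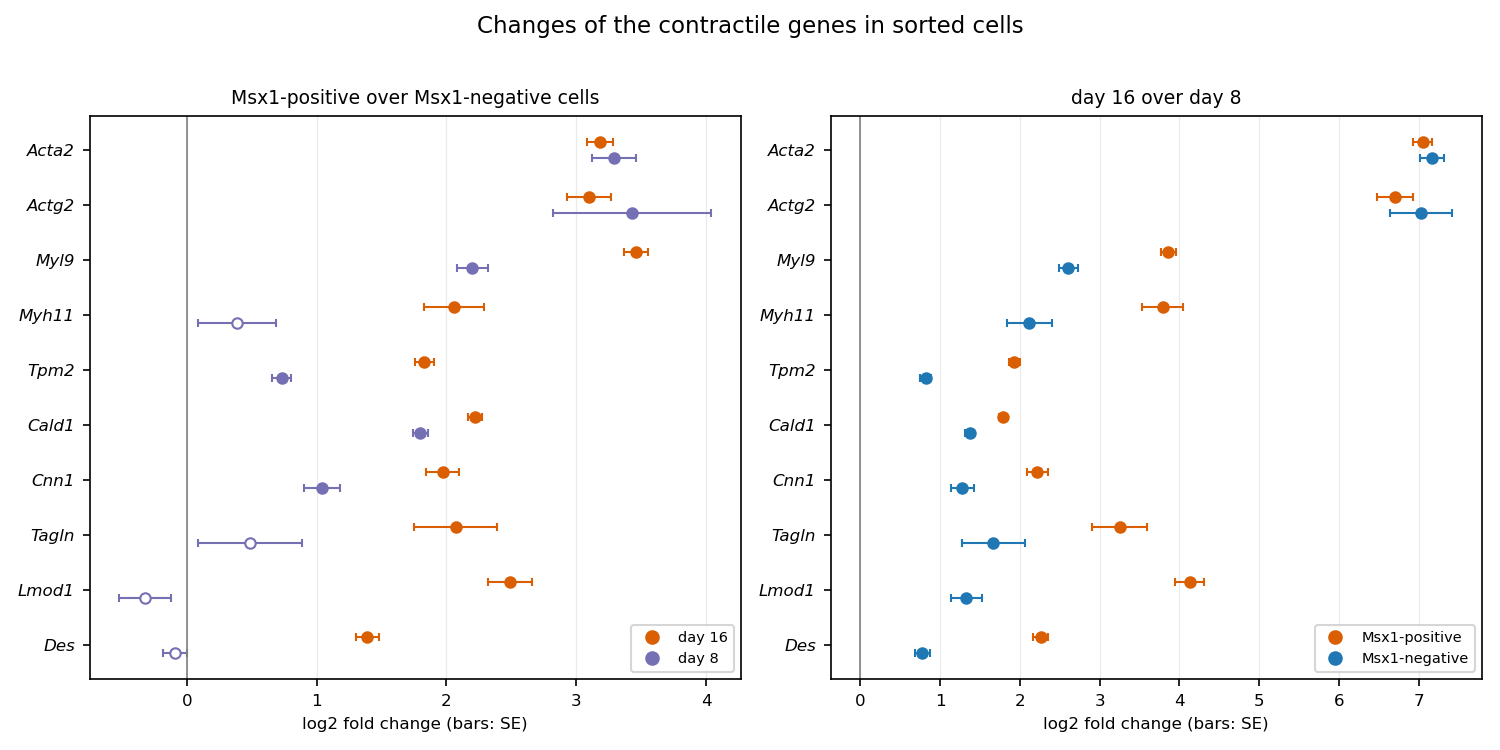
Log2 fold change of each contractile gene with its SE, for Msx1-positive over Msx1-negative cells at day 16 and day 8 (left) and for day 16 over day 8 in each fraction (right). Filled points passed the test and open points did not. Acta2 lies at 3.18 at day 16 and 3.29 at day 8, whereas Lmod1 lies at 2.49 at day 16 and -0.32 at day 8.

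**Figure D3:**
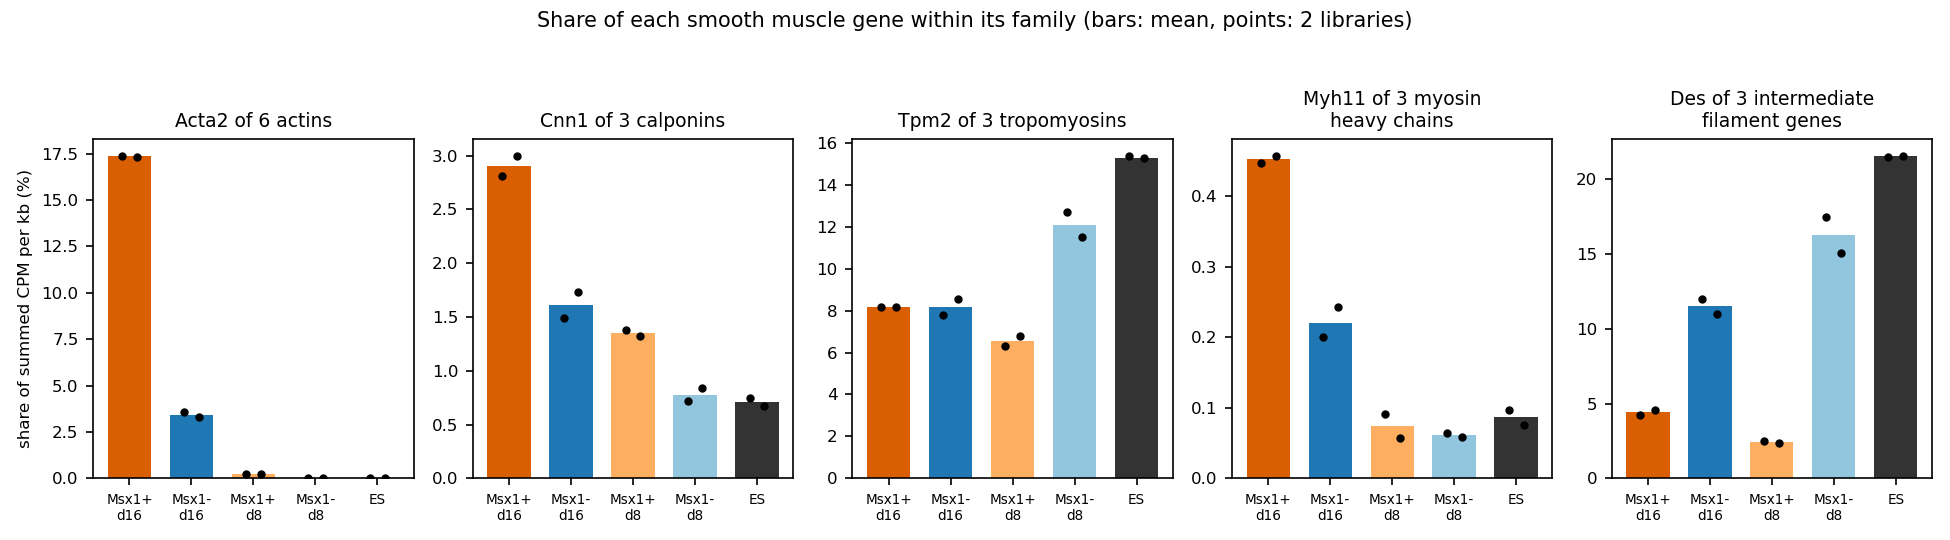
Share of each smooth muscle gene in the summed level per kilobase of its family, in percent, in the sorted groups and the libraries labelled ES. Bars are means and points are the 2 libraries. The Acta2 share is 17.4% in Msx1-positive cells of day 16, whereas the shares of Tpm2 and Des are highest in the libraries labelled ES.

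The change with time differed in size among the 10 genes. In Msx1-positive cells all 10 genes were higher at day 16 than at day 8, where 21.1% of genes tested were called higher, 24.8% lower and 45.9% in either direction, and the members' median was 3.52 against -0.034 over all genes. In Msx1-negative cells all 10 were also higher at day 16, where 19.7% were called higher, 17.8% lower and 37.6% in either direction, with a median of 1.52 against 0.012. Higher calls made up 46% of all calls in the positive and 52.5% in the negative cells, and 34.7% and 62.9% with scaling by library size, under which all 10 members were still called higher in both. Beside Acta2 and Actg2, the members with the largest rises in Msx1-positive cells were Lmod1 (4.13 ± 0.18), Myl9 (3.86 ± 0.096) and Myh11 (3.79 ± 0.26). Their adjusted p were 1.6e-10, 6.54e-13 and 1.77e-08. In Msx1-negative cells Lmod1 rose by 1.33 ± 0.19, Myl9 by 2.61 ± 0.12 and Myh11 by 2.12 ± 0.28 (adjusted p = 5.28e-05, 4.8e-10 and 3.59e-05). Tpm2 and Des rose least in Msx1-negative cells, by 0.82 ± 0.073 and 0.78 ± 0.094 (adjusted p = 5.79e-07 and 1.36e-05). A direct test of the difference between the fractions' changes called 8 of the 10 members, all toward a larger change in the positive cells; 10.3% of all genes were called in that direction, 18.3% in the other and 28.6% in either. Acta2 (-0.12 ± 0.22) and Actg2 (-0.33 ± 0.71) were not called. The Actg2 value was -4.68 without the first Msx1-negative library of day 8 and 0.56 without the second. It therefore does not set Actg2 apart from the other members. Scaling by library size lowered the share of higher calls among all genes called for this difference to 15.5%, against 35.9%, and left 7 members called, without Tagln.

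The level in negative cells as a percent of that in positive cells differed among the members. At day 16 it ran from 9.09% for Myl9 to 38.1% for Des, with a median of 22.6%. At day 8 it ran from 8.76% for Actg2 to 127% for Lmod1, with a median of 54.6%. For Msx1 itself it was 1.01% at day 16 and 3.32% at day 8, and for 10 fibroblast and matrix markers it ran from 1.37% to 73.5% at day 16, with a median of 4.06%, and from 0.449% to 44.1% at day 8, with a median of 2.35%, so the ranges of markers and members overlapped.

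Against the libraries labelled ES, all 10 genes were higher in Msx1-positive cells of day 16 and all 10 in Msx1-negative cells of day 16. Of 22504 genes tested, 37.3% were called higher, 33.7% lower and 71% in either direction for the positive cells, and 28.5% higher, 24.5% lower and 53% in either direction for the negative cells. Acta2 had 0 reads in both libraries labelled ES. With a floor of 3 counts over that group it was at least 34400-fold higher in Msx1-positive and at least 3800-fold higher in Msx1-negative cells of day 16, and at least 259-fold and 26.3-fold higher in Msx1-positive and Msx1-negative cells of day 8. The median log2 change of the members was 4.85 in the Msx1-positive and 2.64 in the Msx1-negative cells of day 16, also with Acta2 set at its lower bound, against 0.068 and 0.065 over all genes. Myl9 rose by 7.05 ± 0.14 in the positive and by 3.59 ± 0.14 in the negative cells of day 16 (adjusted p = 1.34e-17 and 1.24e-12).

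At day 8 the gap to the libraries labelled ES was smaller and less uniform. In Msx1-positive cells 7 members were higher and 1 lower, where 34.6% of genes were called higher, 26.9% lower and 61.5% in either direction. The 7 were Acta2, Actg2, Cnn1, Myl9, Cald1, Tpm2 and Lmod1. The lower one was Des, at 11.5 and 11.8 CPM in Msx1-positive cells of day 8 and 14.1 and 14.1 CPM in the libraries labelled ES (-0.27 ± 0.094, adjusted p = 0.0176). That call did not hold with scaling by library size (-0.09, adjusted p = 0.44) or without the first Msx1-positive library of day 8 or either library labelled ES. In Msx1-negative cells 5 members were higher and none lower, where 19% of genes were called higher, 14.5% lower and 33.6% in either direction. These were Acta2, Myl9, Cald1, Tpm2 and Lmod1, with Lmod1 at 1.56 and 1.94 CPM in Msx1-negative cells of day 8 against 0.579 and 0.549 CPM (1.62 ± 0.24, adjusted p = 5.26e-05).

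Ordered by mean level, Msx1-positive cells of day 16 came first for all 10 genes, and their libraries overlapped those of no other group. Msx1-negative cells of day 16 came second for all genes but Cald1. Below these the order varied. Des was lowest in Dlx2 EBs, Cnn1 was at 1.49 and 2.34 CPM in Dlx2 EBs and 2.18 and 1.86 CPM in the libraries labelled ES, which overlap, and for Myh11 the Dlx2 EBs overlapped both fractions of day 8, which did not overlap each other. For Tagln, Msx1-negative cells of day 16 overlapped Dlx2 EBs, at 0.85 and 0.638 CPM against 0.657 and 0.607 CPM. The EB values come from the other table, so these neighbours are a description only.

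At day 2 the contractile genes did not move together under forced Dlx2. Of the 8 members tested, 3 rose, 1 fell and 4 did not pass the test, in a comparison in which 67.2% of 18650 genes were called, 34.1% higher and 33% lower. The members' median log2 change was 0.16, against 0.024 over all genes. Higher calls made up 50.8% of all calls and 63.6% with scaling by library size, which shifted the median of all genes to 0.198 and changed no member's call. Acta2 and Actg2 did not reach the count filter: Acta2 had 3 and 8 reads in Dlx2 EBs and 0 and 3 reads in GFP EBs. The Acta2 ratio was 2.3, with a 95% exact counting interval of 0.608 to 12.8, so no difference was detectable at this depth.

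Myl9 rose most among the members at day 2, with 8.13 and 8.79 CPM in Dlx2 EBs against 2.64 and 2.54 CPM in GFP EBs (1.70 ± 0.17, adjusted p = 7.26e-09). Lmod1 was at 2.7 and 2.28 CPM in Dlx2 EBs and 0.892 and 0.969 CPM in GFP EBs (1.42 ± 0.29, adjusted p = 0.000168). Cald1 stood at 118 and 112 CPM in Dlx2 EBs and 94 and 92 CPM in GFP EBs, a small rise of 0.31 ± 0.052 (adjusted p = 2.06e-05). In all 3 genes both Dlx2 libraries lay above both GFP libraries. Des fell, to 3.22 and 3.5 CPM in Dlx2 EBs against 7.67 and 8.36 CPM in GFP EBs (-1.26 ± 0.16, adjusted p = 4.36e-07). Tpm2 had 22.6 and 24.1 CPM in Dlx2 EBs and 21.6 and 24.8 CPM in GFP EBs, with a change of 0.01 ± 0.089 (adjusted p = 0.921). The changes of Cnn1 (-0.51 ± 0.26), Myh11 (-0.60 ± 0.46) and Tagln (0.72 ± 0.49) did not pass, with adjusted p of 0.0936, 0.253 and 0.204. Without the first GFP library Cnn1 was called lower (-0.66, adjusted p = 0.0327). Among relatives of the members, Tpm1 rose by 1.82 ± 0.051, Cnn2 by 1.27 ± 0.059 and vimentin by 0.76 ± 0.055 (adjusted p = 1.56e-18, 1.33e-14 and 4.18e-11).

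Of 20 genes that regulate smooth muscle, 12 rose and 6 fell at day 2, against 34.1% and 33% of all genes tested. Myocd, the cofactor of SRF named myocardin, was at 2.81 and 2.92 CPM in Dlx2 EBs against 0.568 and 0.606 CPM in GFP EBs (2.28 ± 0.30, adjusted p = 7.7e-07). Mrtfa, the related coactivator that actin polymerisation sends to the nucleus, was at 170 and 175 CPM in Dlx2 EBs against 46.3 and 47.8 CPM in GFP EBs (1.87 ± 0.054, adjusted p = 2.77e-18), and Mrtfb rose by 0.44 ± 0.078 (adjusted p = 3.44e-05). All 4 values of each gene separated by group. Srf itself was at 40.3 and 41.3 CPM in Dlx2 EBs and 41.1 and 46.3 CPM in GFP EBs and did not pass the test (-0.10 ± 0.075, adjusted p = 0.26; 0.08 with scaling by library size). The endothelin receptor Ednra, the mesenchymal factor Foxf1, Tbx18, Gata6, the TGF-beta receptor Tgfbr1 and Pdgfrb rose by 3.03, 2.97, 2.53, 2.47, 2.29 and 1.96 on the log2 scale. The Notch targets Heyl and Hey2 rose by 1.60 and 1.27, and Elk1, a factor that competes with myocardin for SRF, by 0.41. The 6 that fell were Tgfb1, Notch3, Klf4, Jag1, Tgfbr2 and Smad3, by 1.52, 0.81, 0.81, 0.47, 0.41 and 0.30; the calls of Tgfbr2 and Smad3 were lost with scaling by library size (adjusted p = 0.137 and 0.175). Klf4, a pluripotency factor, also represses smooth muscle genes.

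At day 16, 16 of the 20 regulators were higher in Msx1-positive cells, 2 lower and 2 not called. Over all genes in that comparison, 31.1% were called higher and 31% lower. Srf was at 91.5 and 87.3 CPM in the positive and 55.2 and 62.8 CPM in the negative cells (0.60 ± 0.077, adjusted p = 8.56e-06). Myocd was at 2.67 and 3.35 CPM in the positive and 0.523 and 0.687 CPM in the negative cells (2.31 ± 0.30, adjusted p = 9.33e-06). Mrtfa and Mrtfb differed by 0.88 ± 0.089 and 0.95 ± 0.11 (adjusted p = 6.73e-07 and 3.33e-06). The largest changes were those of Ednra (4.36), Foxf1 (4.11), Pdgfrb (4.07) and Tgfb1 (3.25). The lower ones were Klf4, at 76.4 and 81.6 CPM in the positive against 239 and 253 CPM in the negative cells (-1.64 ± 0.061, adjusted p = 8.54e-12), and Gata6 (-0.76 ± 0.079, adjusted p = 7.64e-07). The other genes that rose were the Notch target Heyl (2.71), Tgfbr2 (1.99), Tbx18 (1.66), the Notch ligand Jag1 (1.62), the TGF-beta effector Smad3 (1.60), Tgfbr1 (1.58), the ligand Edn1 (0.91) and the receptor Notch3 (0.88). Elk1 (0.04) and Hey2 (0.60) were not called, with adjusted p of 0.63 and 0.0875.

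At day 8, 13 regulators were higher in Msx1-positive cells, 2 lower and 5 not called. Over all genes in that comparison, 30.4% were called higher and 24.3% lower. Myocd already differed, at 1.07 and 1.16 CPM in the positive and 0.0972 and 0.0739 CPM in the negative cells (3.67 ± 0.41, adjusted p = 2.1e-06). Srf did not differ detectably, at 51.5 and 58.4 CPM in the positive and 56.8 and 59.5 CPM in the negative cells (-0.08 ± 0.077, adjusted p = 0.408; 0.07 with scaling by library size). The difference between the days was called higher for Srf (0.68 ± 0.11, adjusted p = 0.000292), Jag1 (1.37 ± 0.15, adjusted p = 9.04e-06), Edn1 (1.07 ± 0.29, adjusted p = 0.0117) and Notch3 (0.47 ± 0.13, adjusted p = 0.0149), 4 of the 20 regulators. It was called lower for 6, Tgfbr2 (-1.58), Klf4 (-0.77), Ednra (-0.73), Tgfb1 (-0.52), Gata6 (-0.40) and Tgfbr1 (-0.35), and the regulators' median was -0.08 against -0.097 over all genes. It was not called for Mrtfa (0.04; -0.15 with scaling by library size) or Mrtfb (0.18), nor for Myocd (-1.36 ± 0.53, adjusted p = 0.0713), which was called lower with scaling by library size (-1.54, adjusted p = 0.0381). The Notch3 call was lost with scaling by library size (adjusted p = 0.0924). Of all genes tested for the difference between the days, 10.3% were called higher and 18.3% lower.

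**Figure D4:**
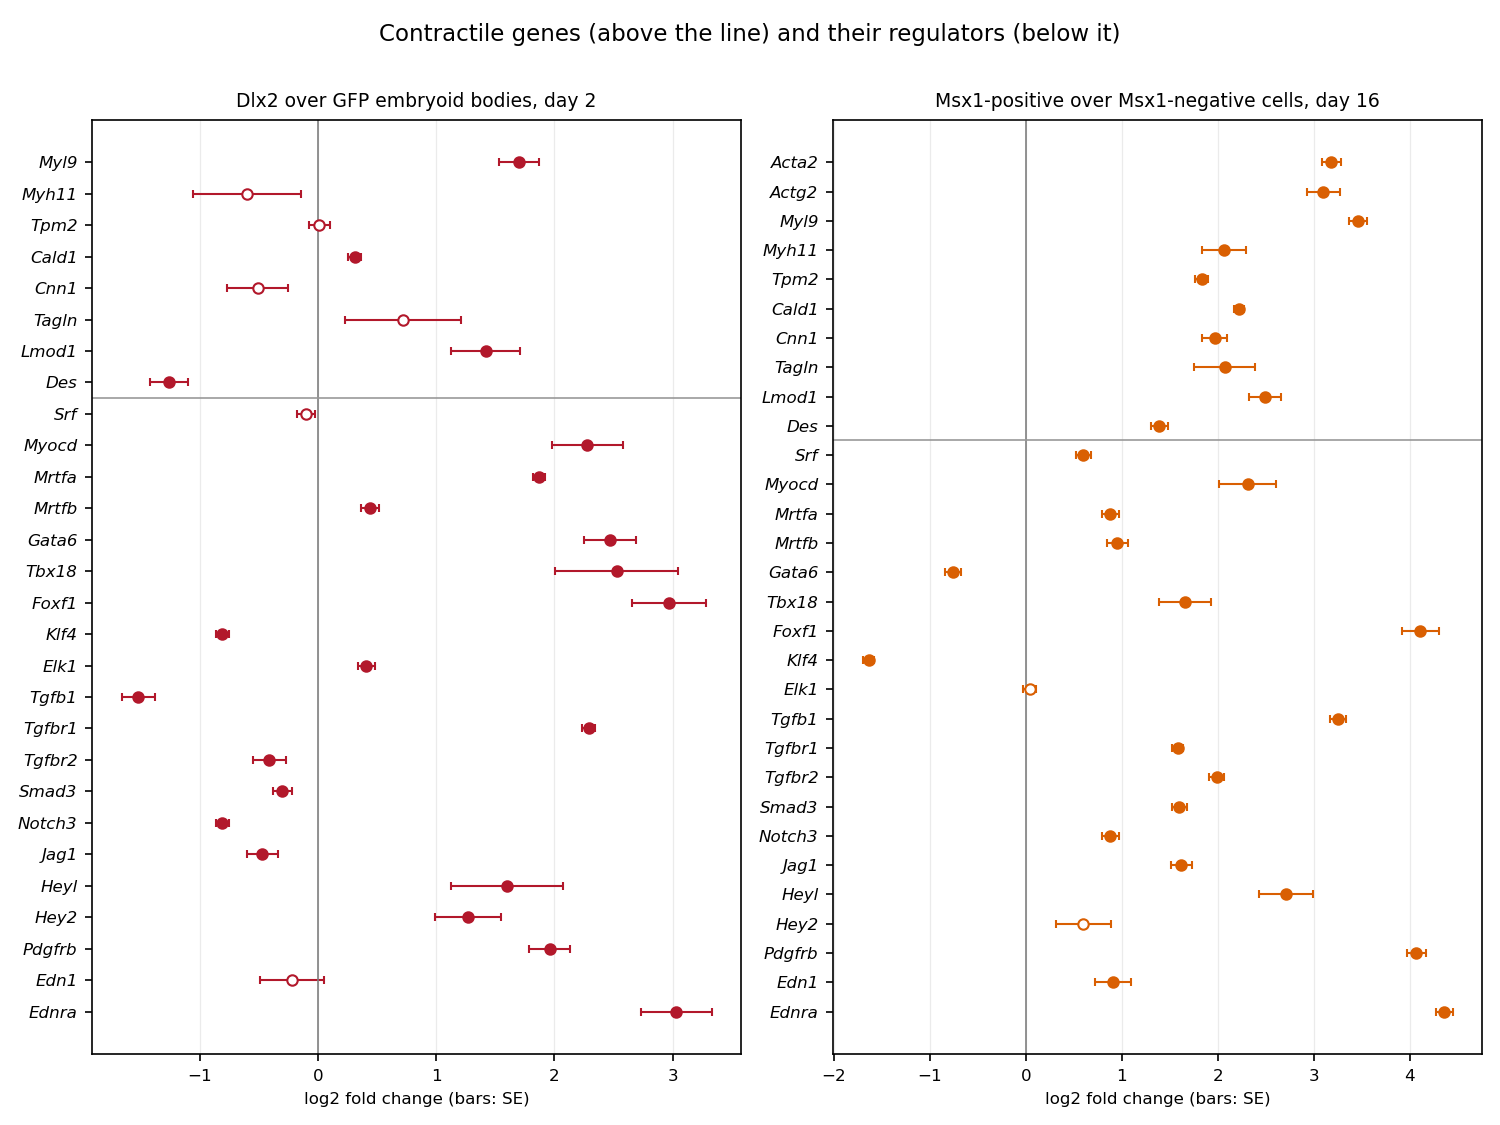
Log2 fold change with its SE for the contractile genes (above the grey line) and 20 regulators (below it), for Dlx2 over GFP EBs at day 2 (left) and Msx1-positive over Msx1-negative cells at day 16 (right). Filled points passed the test and open points did not. At day 2 the contractile genes lie on both sides of 0 while Myocd lies at 2.28; at day 16 all 10 lie to the right of 0.

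A further 45 genes linked to the contractile apparatus or to SRF were followed. At day 16, 36 of the 43 tested were higher in Msx1-positive cells and 3 lower, against 31.1% and 31% of all genes. Their median log2 change was 0.95, against -0.016 over all genes. The largest were Prkg1, the kinase of the nitric oxide pathway that relaxes smooth muscle (4.25 ± 0.14), the integrin Itga8 (3.95 ± 0.10) and Mylk, the kinase that phosphorylates Myl9 (3.36 ± 0.12), with adjusted p of 9.97e-12, 2.3e-13 and 5.82e-12. Mylk was at 38.9 and 39.4 CPM in the positive and 4.11 and 3.5 CPM in the negative cells. The lower genes included Ppp1r14a, an inhibitor of myosin phosphatase (-0.80), and Acta1 (-0.66). At day 8, 32 of 43 were higher, led by Itga8 (4.89), Prkg1 (4.85) and Tgfb1i1 (4.32). Another 5 were lower, led by Ppp1r14a (-1.04), Aoc3 (-1) and Csrp2 (-0.64). Of all genes tested at day 8, 30.4% were called higher and 24.3% lower.

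For the difference between the days, 19 of these 43 genes were called higher and 5 lower, against 10.3% and 18.3% of all genes. Itga1 (2.38), Nexn (1.84) and Mrvi1 (1.74) led the first, and Acta1 (-2.25), Tgfb1i1 (-1.47) and Itga8 (-0.94) the second. Between the days, 37 of 43 rose in Msx1-positive cells, led by Actc1 (4.43), Mrvi1 (3.58) and Fhl2 (3.26), and Lmod3 fell (-2.18). In Msx1-negative cells 28 rose, led by Actc1 (5.21), Tgfb1i1 (4.49) and Acta1 (3.57), and 4 fell, led by Csrp2 (-0.69), Synm (-0.40) and Synpo2 (-0.40); the Synpo2 call was lost with scaling by library size (adjusted p = 0.0957). Of all genes, 21.1% rose and 24.8% fell between the days in Msx1-positive cells, and 19.7% rose and 17.8% fell in Msx1-negative cells. At day 2, 23 of 41 rose with Dlx2 and 10 fell, against 34.1% and 33% of all genes. Lmod3, a leiomodin of skeletal muscle, had 73 reads in the Dlx2 EBs against 1 read in the GFP EBs, a ratio of 45.8 with a counting interval of 7.97 to 1830. Kcnmb1, a subunit of the calcium activated potassium channel, and Prkg1 rose by 3.52 ± 0.59 and 2.66 ± 0.23 (adjusted p = 1.9e-05 and 9.13e-10). Smoothelin (Smtn), Itga1 and Synpo2 fell by 0.94, 0.77 and 0.70.

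Markers of other cell types also differed between the groups. The summed level of 10 fibroblast and matrix markers was 17000 and 15600 CPM in Msx1-positive and 703 and 778 CPM in Msx1-negative cells of day 16, and 1850 and 2080 CPM in Msx1-positive and 85.9 and 84.1 CPM in Msx1-negative cells of day 8. It was 1520 and 1540 CPM in Dlx2 EBs and 21.1 and 22.1 CPM in GFP EBs. Most of the Dlx2 EB sum was Col1a2, with a mean of 1250 CPM. Of the 7 tested there 5 were higher, on the log2 scale: Col1a2 (9.99), Pdgfra (7.79), Col3a1 (1.77), Thy1 (1.36) and Col1a1 (1.21). The 2 lower were Dcn (-2.13) and Fbln2 (-0.66). Of all genes tested at day 2, 34.1% were called higher and 33% lower. All 10 fibroblast and matrix markers were called higher in Msx1-positive cells at both days. The share called higher over all genes was 31.1% at day 16 and 30.4% at day 8. Col1a1 had a mean of 7360 CPM in the positive and 298 CPM in the negative cells of day 16. In the libraries labelled ES the sum was 48.2 and 43.2 CPM, with Postn, Dcn, Lum and Fap at 0. The 10 contractile genes together summed to 2350 and 2430 CPM in Msx1-positive and 404 and 413 CPM in Msx1-negative cells of day 16. Acta2 and Cald1, with means of 1000 and 935 CPM, made up most of the sum in the positive cells. Myh11 and Tagln added 7.57 and 3.14 CPM. The sums of the 10 contractile genes overlapped in no pair of groups that was compared.

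The median log2 change of the fibroblast and matrix markers, Msx1-positive over Msx1-negative, was 5.44 at day 8 and 4.62 at day 16. Over all genes it was 0.062 and -0.016. For the difference between the days, 3 of these markers were called higher, 3 lower and 4 not called. Of all genes, 10.3% were called higher and 18.3% lower for that difference.

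Pericyte markers, some of which smooth muscle shares, summed to 755 and 702 CPM in Msx1-positive and 255 and 268 CPM in Msx1-negative cells of day 16, with 8 of 9 tested called higher and 1 lower. The highest of them was Notch3, counted above among the regulators, with means of 268 CPM in the positive and 146 CPM in the negative cells. Cardiac muscle markers stayed low at 33.7 and 31.6 CPM in the positive and 28.8 and 30.4 CPM in the negative cells. Of 9 tested, 4 were called higher and 3 lower. Skeletal muscle markers were also low, at 13.8 and 14.5 CPM against 20.5 and 20.1 CPM. Of 8 tested, 2 were called higher and 2 lower. Acta1 and Actc1, counted above among the actins, are also in these lists. Pluripotency markers ran the other way, with 228 and 243 CPM in the positive and 4230 and 4070 CPM in the negative cells, and all 10 were called lower. Endothelial markers summed to 84.4 and 77 CPM in the positive and 258 and 279 CPM in the negative cells, with 4 of 10 called higher and 5 lower. Epithelial markers summed to 972 and 1010 CPM against 1810 and 1830 CPM, with 9 of 10 called lower. The part of these cell types in the contractile result was not tested. Of all genes tested at day 16, 31.1% were called higher in the positive cells and 31% lower.

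**Figure D5:**
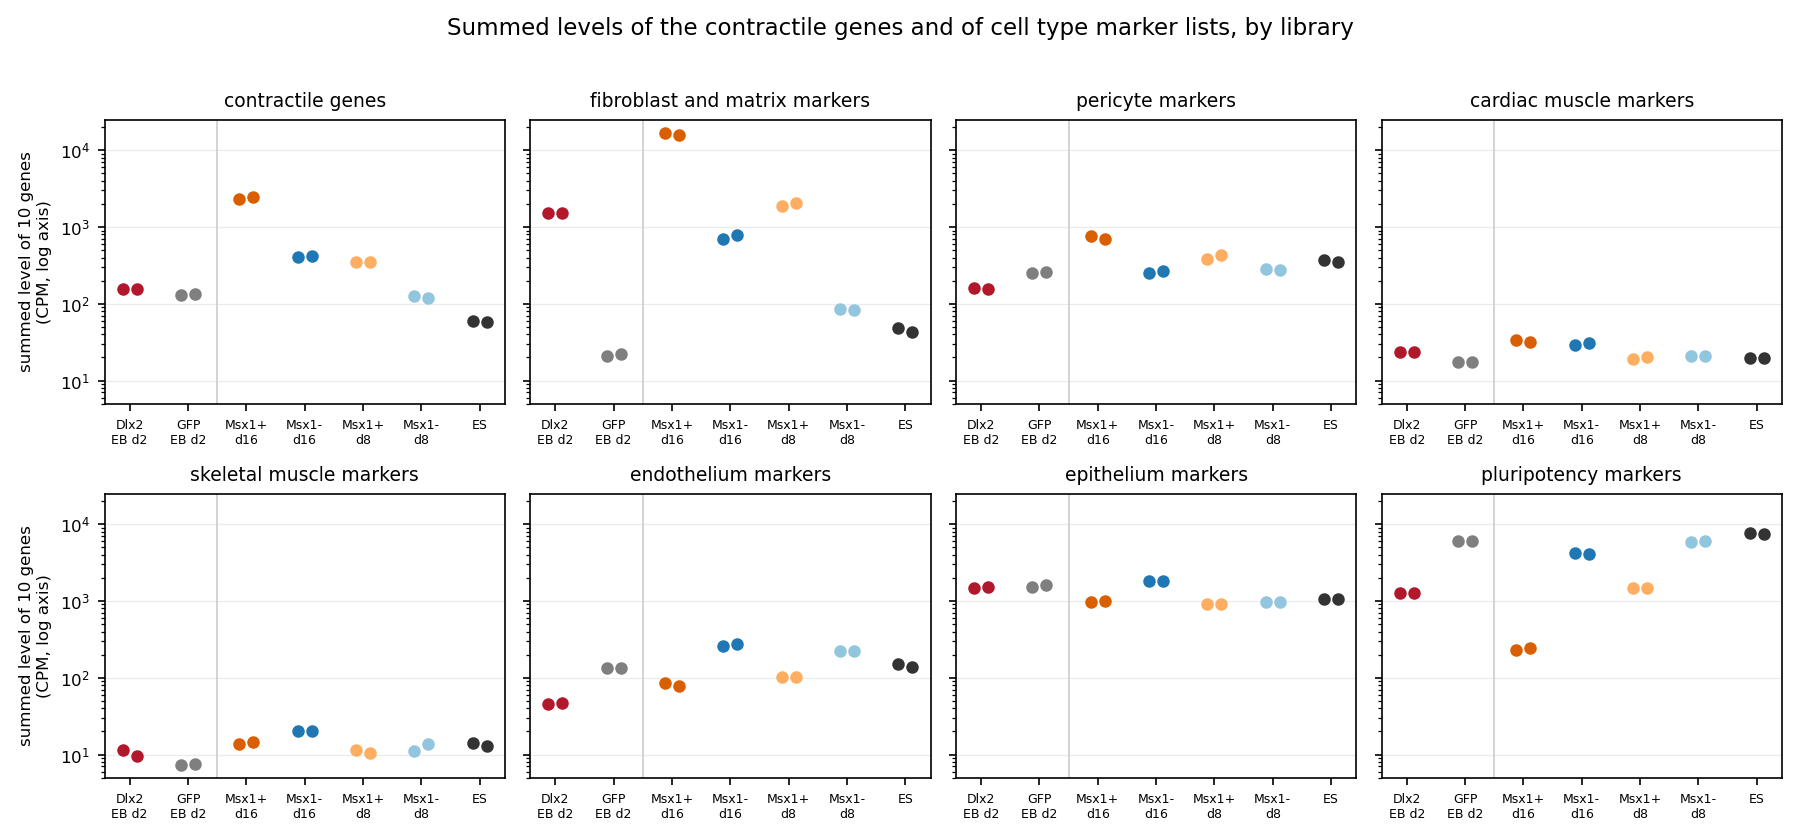
Summed CPM of the contractile genes and of 7 marker lists on a log axis, with 1 point per library. Lists hold 10 genes, of which 9 were listed at day 2 in some lists; the vertical line separates the 2 tables. The fibroblast and matrix sum reaches 17000 and 15600 CPM in Msx1-positive cells of day 16. There the contractile genes sum to 2350 and 2430 CPM, most of it Acta2 and Cald1, and cardiac and skeletal markers stay below 40 CPM.

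Across the 10 libraries of days 8 and 16 and ES, the 45 pairs of members had Pearson correlations of log2 CPM from 0.71 (Cald1 and Des) to 0.99, with a median of 0.93. These points share groups and libraries, so the values describe how alike the profiles are. Among the 22504 genes of that fit, members aside, those most like the members' mean profile were Casp12 (r = 0.9975), Tmem263 (0.9957), Txndc5 (0.9957), Creb3l1 (0.9915), Cyp20a1 (0.9914), Sec22b (0.9913), Fkbp9 (0.9905), Ppic (0.99), Bbip1 (0.9899) and Pard6g (0.9888), each over 10 libraries. Casp12 had 6.34 and 7.06 CPM in Msx1-positive and 0.556 and 0.671 CPM in Msx1-negative cells of day 16, and 0 in the libraries labelled ES. Txndc5, a disulfide isomerase of the endoplasmic reticulum, had 410 and 420 CPM in the positive and 266 and 254 CPM in the negative cells of day 16. None of the 10 belongs to the lists of contractile genes or regulators used here.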

How the data were processed

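RNA-seq read counts per gene symbol were used as the authors deposited them, in 1 table for day 2 and 1 for days 8 and 16 with ES cells. Per the submitters' processing notes, reads were trimmed with fastp 0.20.0 and aligned with HISAT2 2.1.0 to GRCm38, and DESeq2 1.18.1 was used; which program counted reads, and on which annotation, is not given in the sources used here. Per the labels' protocols, libraries were made with the NEBNext Ultra RNA kit. Of 18 samples described in 9 groups, 14 libraries in 7 groups have columns; the 4 samples of uninduced groups were not analysed here. The day-2 columns do not name doxycycline and were read as induced, since the design compares overexpressing EBs.

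Genes were filtered with filterByExpr, scaled by TMM and tested with edgeR 4.0.16 (quasi-likelihood, R 4.3.3), with Benjamini-Hochberg adjustment across every gene tested in a comparison and calls at an adjusted p below 0.05. Separate fits covered the 4 EB libraries, the 8 sorted libraries, and those 8 with the 2 libraries labelled ES. SE is the log2 fold change divided by the root of F. Levels per kilobase used merged exon lengths of the GENCODE vM21 annotation of GRCm38. Libraries held 26211608 to 107770730 counts; ratio intervals cover counting error at 95% only, and a floor of 3 counts replaced 0. Fits were tested on simulated counts with a dispersion of 0.02 and 200 changed genes, far fewer than were called in the data. The simulations covered day 2, the fractions of day 8, and Msx1-positive cells of day 8 against the libraries labelled ES. The rates belong to that setting and may differ in the data. Of genes changed 2-fold, 58.6% to 69.8% were recovered, and of genes changed 4-fold, 95.8% to 97.9%. A gene that was not called may therefore still differ. Alternatives were RLE and library-size scaling, DESeq2 1.42.0, no filter, at least 1 CPM in at least 2 libraries, a replicate block, other samples in the fit and leaving out each library. Replicates within a group differed beyond sampling noise. The chi-square per degree of freedom ran from 4.13 in Dlx2 EBs to 18.5 in Msx1-positive cells of day 8. In Msx1-positive cells of day 16 it was 12.4.

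The 10 genes and all lists were chosen with earlier results of these data known. The text names all members, the regulators tested, and from the further contractile genes the 3 called higher and the 3 called lower with the largest change in a comparison, with the related actins and paralogs. It also names the 10 other genes of highest Pearson correlation with the members' mean standardised profile. One gene that this rule would name is not reported here. Mylk, Myh9, Myh10 and Synm are given where they stand beside a member.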

Additional observations from a re-analysis of the deposited data

Results flagged for a closer look

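For 8 of the 10 contractile genes the difference between Msx1-positive and Msx1-negative cells was itself different at the 2 days, by edgeR's quasi-likelihood test of the difference with Benjamini-Hochberg adjustment. Of all genes tested, 10.3% were called in this direction and 28.6% in either, and with scaling by library size 7 members were called. As the change at day 16 minus that at day 8, on the log2 scale, it was 2.81 for Lmod1 (adjusted p = 1.32e-06), 1.67 for Myh11 (0.00455), 1.59 for Tagln (0.0346) and 1.48 for Des (9.43e-07). It was 1.26 for Myl9 (adjusted p = 2.84e-05), 1.11 for Tpm2 (1.28e-06), 0.93 for Cnn1 (0.0015) and 0.42 for Cald1 (0.000812). In each of the 8 genes both Msx1-positive libraries of day 16 lay above both Msx1-negative libraries. This was also so for Acta2 and Actg2, which were not called, and it does not bear on the difference between the days. The Tagln call was lost under 7 alternatives, with adjusted p from 0.0551 to 0.139, and most of its exon length overlaps genes on the other strand.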

How the results depend on the processing

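Across 1547 alternative values of 98 member results, 1531 stayed on their side of the threshold, 5 passed it newly, 11 no longer passed it, and none changed direction while called. The number of members called lower in Msx1-positive cells of day 8 against the libraries labelled ES was 0 with library-size scaling, against 1, and ran from 0 to 1 with a library left out; Des was the gene (adjusted p = 0.0599 to 0.0866 without 1 library). With a library left out, the members called lower ran from 1 to 2 at day 2, from 0 to 1 between the fractions at day 8 (Lmod1 -0.64, adjusted p = 0.0273, without the second Msx1-positive library) and from 0 to 1 for the difference between the days (Acta2, without the first Msx1-negative library of day 8). The Tagln difference was not called without the second Msx1-positive library of day 8 (1.39, adjusted p = 0.11), either Msx1-negative library of day 8 (1.65 and 1.57, adjusted p = 0.0736 and 0.0856), the second Msx1-positive (1.31, adjusted p = 0.139) or the second Msx1-negative library of day 16 (1.39, adjusted p = 0.104), or with the libraries labelled ES in the fit (1.59, adjusted p = 0.0551). Tagln was called higher in Msx1-positive cells of day 8 than in the libraries labelled ES with library-size scaling (1.34, adjusted p = 0.0285) and without the second ES library (2.06, adjusted p = 0.0173), against 1.16 (adjusted p = 0.0553). Actg2 at day 8 and Actg2 and Tagln against the libraries labelled ES rest on few reads: without the first or second ES library the Actg2 change in Msx1-positive cells of day 16 was 8.41 or 9.97, against 9. The causes were not tested.

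Replicate numbers are shared between groups, but same-numbered libraries did not deviate together (correlation 0.04 at day 2 and -0.05 to 0.12 in 10 pairs of groups later), so the numbers were not taken to pair them. With the replicate number as a block, 12883 genes were called at day 2 against 12524, 11959 against 12187 at day 8, 13682 against 13847 at day 16 and 6090 against 6384 for the difference, and no member's call changed.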
